A study of Mus musculus with 14 samples.

Results

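The levels of 10 genes that mark hepatic stellate cells or build the extracellular matrix were followed across the liver arrays of diet-induced obese (DIO) C57BL/6J mice. They were Reln, Dcn, Lum, Col1a1, Col1a2, Col3a1, Vim, Des, Sparc and Timp1. All probe sets that the platform annotation gives to 1 of these 10 symbols were taken, 17 of the 22690 on the array, for 10 of its 12394 genes with a single symbol. The livers fell into 3 groups: adenoviral short hairpin RNA (shRNA) to Jnk1 on 5 arrays, the same kind of virus with an shRNA to green fluorescent protein (GFP) on 4 arrays numbered 1, 2, 3 and 5, and vehicle on 5 arrays. Jnk1, whose gene is Mapk8, is a stress-activated kinase. Cells cut an shRNA into a small RNA that lowers the transcript it matches, and GFP is not a mouse gene. All 14 samples shared the strain and the obese state, and the labels name no virus for the vehicle livers. The labels state no dose, route, time, age or sex, and do not tell how many mice the samples represent, so p-values measure a spread between samples that may be technical.

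Stellate cells lie between the liver endothelium and the hepatocytes, store vitamin A, and make most of the fibrillar collagen of an injured liver when they turn into myofibroblasts. Fibrillar collagens I and III give the matrix its tensile strength. Small leucine-rich proteoglycans such as decorin and lumican bind those fibrils. Vimentin and desmin are intermediate filaments of mesenchymal and muscle-like cells, and in whole liver vimentin is also made by macrophages, lymphocytes and endothelium.

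The promoters of 4 members whose levels differed between groups are shown because they differ in base composition and in the common promoter motifs they hold. Each is the 250 bases before the start of the RefSeq transcript in GRCm38.p6, read 5′ to 3′ on the gene's strand. Capitals mark matches, on either strand, to the TATA box (TATAAA), the CCAAT box (CCAAT), the GC box (GGGCGG) or a SMAD element (CAGAC).
Reln, chr5:22344706-22344955, minus strand: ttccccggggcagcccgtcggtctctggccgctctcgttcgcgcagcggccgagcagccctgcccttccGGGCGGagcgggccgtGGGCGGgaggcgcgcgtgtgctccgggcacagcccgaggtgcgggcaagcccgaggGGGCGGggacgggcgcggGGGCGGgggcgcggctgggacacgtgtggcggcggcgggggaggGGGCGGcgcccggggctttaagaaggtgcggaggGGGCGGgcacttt
Vim, chr2:13574061-13574310, plus strand: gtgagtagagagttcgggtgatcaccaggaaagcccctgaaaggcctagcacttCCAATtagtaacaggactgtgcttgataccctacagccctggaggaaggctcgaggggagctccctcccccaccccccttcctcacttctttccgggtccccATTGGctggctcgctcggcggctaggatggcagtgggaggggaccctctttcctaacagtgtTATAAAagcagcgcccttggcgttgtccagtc
Col1a2, chr6:4505368-4505617, plus strand: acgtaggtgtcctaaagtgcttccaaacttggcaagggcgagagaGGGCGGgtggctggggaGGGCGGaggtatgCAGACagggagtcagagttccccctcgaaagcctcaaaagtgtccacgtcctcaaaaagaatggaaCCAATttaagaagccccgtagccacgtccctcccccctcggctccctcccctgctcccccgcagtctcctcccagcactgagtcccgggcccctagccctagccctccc
Col3a1, chr1:45311288-45311537, plus strand: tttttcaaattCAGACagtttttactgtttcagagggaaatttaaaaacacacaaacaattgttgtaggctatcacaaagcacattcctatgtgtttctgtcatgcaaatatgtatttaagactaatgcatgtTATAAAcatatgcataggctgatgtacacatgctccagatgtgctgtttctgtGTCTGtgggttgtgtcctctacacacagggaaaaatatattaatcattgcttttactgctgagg

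Reln had the richest of these promoters in G and C, at 80%, with 6 GC boxes and none of the other motifs. Vim, at 58.4%, held a TATA box 32 bases before the start and 2 CCAAT boxes. Col1a2, at 62%, held 2 GC boxes, 1 CCAAT box and 1 SMAD element. Col3a1 had only 35.2% G and C, with 2 SMAD elements and a TATA box 117 bases before the start. Among 32851 mouse RefSeq promoters of this length the median G and C content was 52.4%. A TATA box was found in 12.37% of them, a CCAAT box in 33.85%, a GC box in 32.74% and a SMAD element in 42.19%. The AP-1 motif (TGANTCA) was found in 6.749% of all promoters and in none of the 7 member promoters that the RefSeq table held. Such matches are letters in a window and are not evidence of binding.

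The intensities below are in arbitrary units after quantile normalization, which gives all arrays the same distribution of values. Log2 differences and adjusted p-values are from limma over 13575 probe sets kept by a filter on the mean over all arrays, with a call at an adjusted p under 0.05. Of the 17 member probe sets 11 were kept, covering 8 genes. Both Col1a1 probe sets, the Timp1 probe set and the second probe sets of Col1a2, Col3a1 and Des lay under the filter. The targeted transcript, Mapk8, ranged over 58.8 to 82.2 in Jnk1 shRNA livers, 159 to 182 in GFP shRNA livers and 149 to 186 in vehicle livers. Added control transcripts (spike-ins) were read from the deposited values, before quantile normalization. They were lower in Jnk1 shRNA samples, at 8.36 ± 0.32 log2 units (SD, n = 5). GFP shRNA samples read 8.91 ± 0.08 (n = 4) and vehicle samples 8.91 ± 0.10 (n = 5, exact two-sided permutation p = 0.0159 and 0.00794). The ranges were 7.89 to 8.76, 8.83 to 9.01 and 8.77 to 9.03, so a covariate for the spike-in level is confounded with Jnk1 shRNA. The ratio of the 3′ to the 5′ probe set of Gapdh was also taken from the deposited values. It was 0.735 ± 0.021 in Jnk1 shRNA, 0.686 ± 0.020 in GFP shRNA and 0.702 ± 0.031 in vehicle samples. For Jnk1 shRNA the exact two-sided permutation p of this ratio was 0.0159 against GFP shRNA, with no overlap, and 0.0873 against vehicle. The 3 comparisons share arrays and are not independent.

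Relative to GFP shRNA, 3 of the 11 member probe sets fell with Jnk1 shRNA (27.3%), and none rose. They were Reln, Dcn and the kept Col1a2 probe set. Of all tested probe sets 33.1% were called in this comparison, and 15.8% were called lower, so the overall share of members called is near the background. In whole liver, fewer cells of a type and less RNA per cell cannot be told apart. Limma gave an unadjusted p under 0.05 for 5 of the 11. All 11 differences were negative, with a median of -0.34 against -0.01 over all tested probe sets. The sign of 3 that were not called turned under some alternatives, where Vim 1450641_at reached 0.14, the kept Des probe set 0.03 and Sparc 1416589_at 0.004. Jnk1 shRNA livers also lay apart from GFP shRNA livers, with no overlap, for 3 member probe sets, and 28.1% of all tested probe sets did so.

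**Figure D1:**
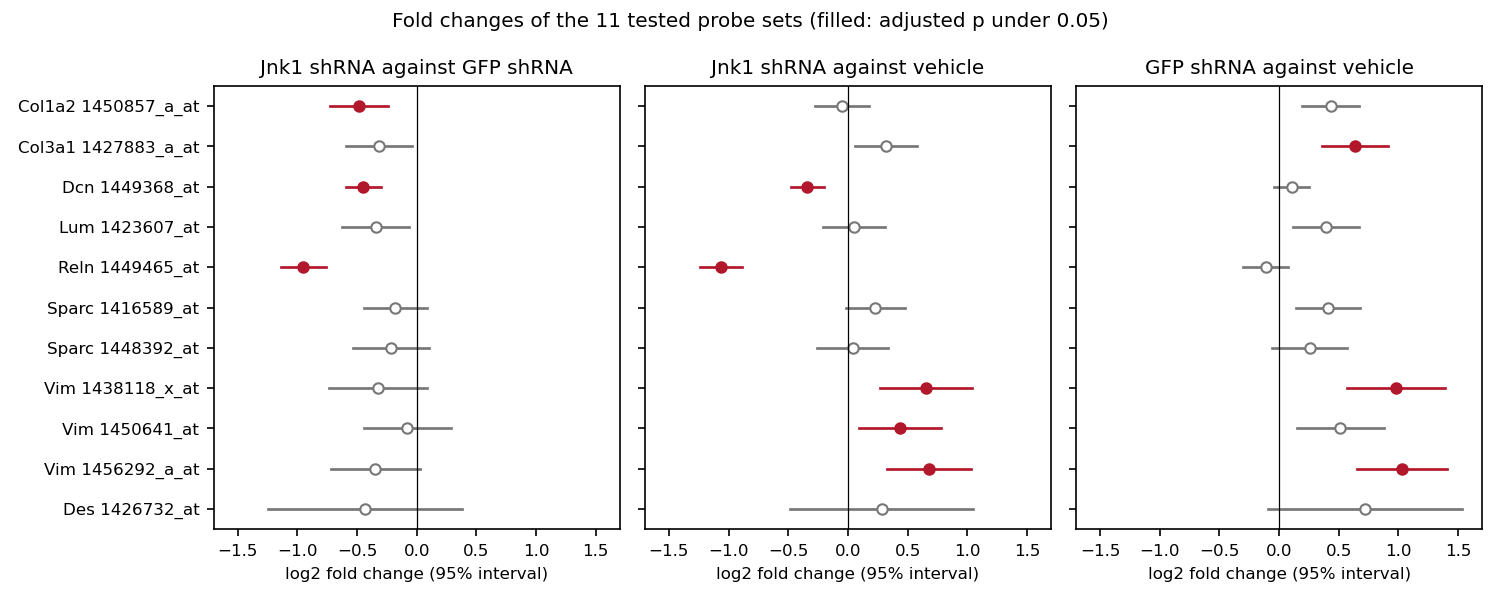
Log2 differences of the 11 kept member probe sets in the 3 comparisons, with 95% intervals from limma, filled where the adjusted p was under 0.05. Among these 11 Reln lay farthest below 0 in both comparisons with Jnk1 shRNA, at -0.95 and -1.06, and the Vim probe sets lay above 0 against vehicle.

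Reln, which encodes the secreted glycoprotein reelin and is made in liver by stellate cells, showed the largest fall among the kept members. The 5 Jnk1 shRNA arrays read 283, 241, 221, 222 and 247, the 4 GFP shRNA arrays 508, 458, 448 and 458, and the 5 vehicle arrays 441, 488, 539, 522 and 545. Every Jnk1 shRNA array lay below every array of the other groups, whose ranges overlapped. The Jnk1 shRNA geometric mean was 51.8% of that of GFP shRNA, a log2 difference of -0.95 ± 0.09 (SE, adjusted p = 1.07e-06), and 47.9% of that of vehicle, -1.06 ± 0.08 (adjusted p = 9.73e-08). GFP shRNA and vehicle livers were not called different (-0.11 ± 0.09, 95% interval -0.30 to 0.08, adjusted p = 0.598).

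Dcn, which encodes decorin, a proteoglycan that binds collagen fibrils and transforming growth factor beta, was the brightest member. It read 891, 905, 778, 863 and 810 in Jnk1 shRNA livers, 1264, 1181, 1103 and 1084 in GFP shRNA livers, and 970, 1099, 1113, 1065 and 1136 in vehicle livers. Jnk1 shRNA arrays again lay below all others, and the control groups overlapped. Dcn was 73.4% of the GFP shRNA level (-0.45 ± 0.07, adjusted p = 1.28e-04) and 78.9% of the vehicle level (-0.34 ± 0.07, adjusted p = 5.92e-04). The call against GFP shRNA was lost when arrays were scaled to a common median in place of quantile normalization (-0.25, adjusted p = 0.166), a setting that put the median of all probe sets at 0.09. Across the other 24 alternatives the call held. In GFP shRNA against vehicle livers Dcn differed by 0.10 ± 0.07 (adjusted p = 0.505).

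Lum, which encodes lumican, lies next to Dcn on chromosome 10 with no protein-coding gene between them. It read 111 to 126.1 (median 117) in Jnk1 shRNA livers, 150, 196, 118 and 148 in GFP shRNA livers, and 102 to 137 (median 117) in vehicle livers. GFP shRNA array 2 was the highest of all, while array 3 lay within the Jnk1 shRNA range. The difference between Jnk1 and GFP shRNA (-0.34 ± 0.13, adjusted p = 0.0540) missed the threshold, and so did that of GFP shRNA against vehicle (0.39 ± 0.13, adjusted p = 0.146). The first was called without GFP shRNA array 3 (-0.46, adjusted p = 0.0129) or vehicle array 3 (-0.34, adjusted p = 0.0493), and without GFP shRNA array 2 it was -0.22 (adjusted p = 0.187). Dcn and Lum thus gave different calls, but the difference between them was not tested.

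Col1a2 encodes the alpha-2 chain of collagen I, which assembles with the product of Col1a1. Its kept probe set read 106, 96.8, 101, 110 and 103 in Jnk1 shRNA livers, 131, 180, 135 and 136 in GFP shRNA livers, and 94.0, 104, 120, 119 and 100 in vehicle livers. The GFP shRNA arrays lay above all arrays of both other groups, which overlapped. Jnk1 shRNA livers were at 71.6% of the GFP shRNA level (-0.48 ± 0.11, adjusted p = 0.00388) and differed from vehicle by -0.05 ± 0.11 (95% interval -0.28 to 0.18, adjusted p = 0.745). GFP shRNA against vehicle was 0.43 ± 0.11 (adjusted p = 0.0571), short of the threshold. Without GFP shRNA array 2 the fall against GFP shRNA held (-0.38, adjusted p = 0.0123). The second probe set lay under the filter, at 7.66 to 28.4 in Jnk1 shRNA livers, 12.2 to 31.3 in GFP shRNA livers and 9.50 to 28.0 in vehicle livers.

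Col3a1, the single chain of collagen III, read 131, 153, 159, 150 and 141 in Jnk1 shRNA livers, 184, 231, 172 and 152 in GFP shRNA livers, and 114, 147, 125, 104 and 102 in vehicle livers. GFP shRNA arrays lay above all vehicle arrays, and Jnk1 shRNA arrays lay between and overlapped both. It rose 1.55-fold with GFP shRNA over vehicle (0.64 ± 0.13, adjusted p = 0.0131). Jnk1 shRNA livers differed by -0.32 ± 0.13 from GFP shRNA (adjusted p = 0.0728) and by 0.32 ± 0.12 from vehicle (adjusted p = 0.0521), each short of the threshold. The first was called without GFP shRNA array 5 (-0.41, adjusted p = 0.0364), and without GFP shRNA array 2 it was -0.21 (adjusted p = 0.237). The second was called in 9 of 25 alternatives, among them without vehicle array 2 (adjusted p = 0.0157), GFP shRNA array 2 (0.0273), GFP shRNA array 5 (0.0451) or Jnk1 shRNA array 1 (0.0433). The second Col3a1 probe set, under the filter, read 12.9 to 25.7 in Jnk1 shRNA livers, 9.21 to 27.9 in GFP shRNA livers and 7.77 to 16.2 in vehicle livers.

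Col1a1, the major chain of collagen I, had both probe sets under the filter. Its brighter probe set read 22.7 to 38.7 in Jnk1 shRNA livers, 27.9 to 34.3 in GFP shRNA livers and 20.3 to 29.4 in vehicle livers. In a limma fit with no filter it was not called in any comparison (log2 differences of 0.01, 0.31 and 0.30, adjusted p = 0.988, 0.306 and 0.613, in the order Jnk1 shRNA against GFP shRNA, Jnk1 shRNA against vehicle, GFP shRNA against vehicle). The other probe set spread over 6.75 to 31.7, 7.80 to 29.8 and 2.08 to 18.0 in Jnk1 shRNA, GFP shRNA and vehicle livers. Collagen I was therefore read here through Col1a2 alone.

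**Figure D2:**
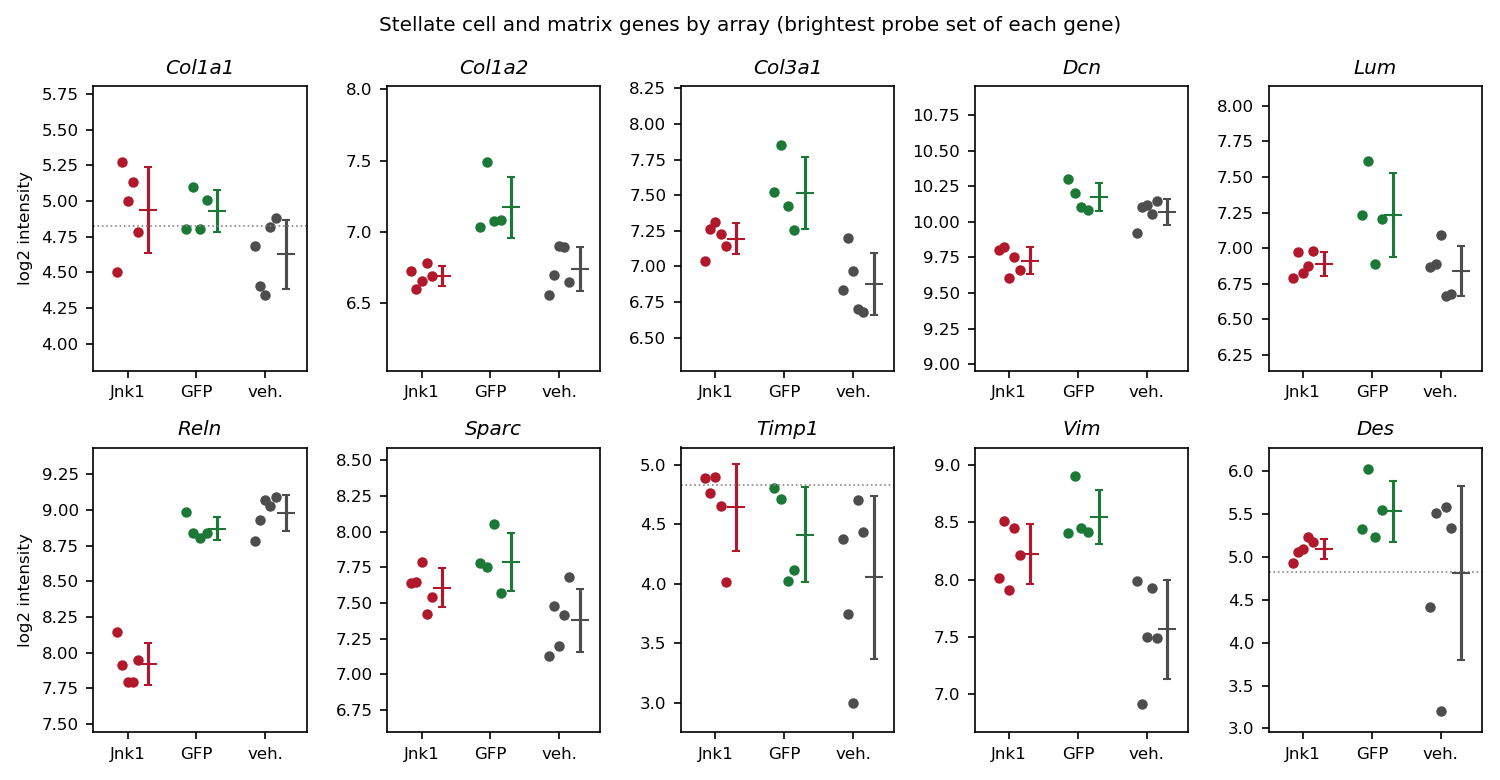
Log2 intensity of the brightest probe set of each of the 10 genes on each array, with Jnk1 shRNA, GFP shRNA and vehicle (veh.) arrays from left to right, mean ± SD beside the points, and a dotted line at the lowest kept mean where it is in range. Reln and Dcn sit lowest in Jnk1 shRNA livers, where the Col1a2 mean is also lowest. The means of Vim, Col3a1, Col1a1, Lum, Sparc, Timp1 and Des are lowest in vehicle livers. Of these only Vim and Col3a1 were called against vehicle at the probe sets drawn.

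Against vehicle, 5 of the 11 member probe sets were called with Jnk1 shRNA (45.5%), against 37.6% of all tested probe sets. Of these 5 the 3 Vim probe sets rose, and Reln and Dcn fell, where 18.9% of all tested probe sets rose and 18.7% fell. Counted by gene this is 3 of 8, against 38.6% of all tested genes. The groups did not overlap for 2 member probe sets, Reln and Dcn, and for 27.7% of all tested probe sets. GFP shRNA against vehicle gave 3 calls among the 11 (27.3%), all higher, against a background of 2.58%, or 2.05% as higher. They were 2 Vim probe sets and Col3a1, or 2 of 8 genes, against 2.8% of all tested genes. The median member difference was 0.23 for Jnk1 shRNA against vehicle and 0.43 for GFP shRNA against vehicle, each beside -0.02 over all tested probe sets. Between GFP shRNA and vehicle livers 4 member probe sets had no overlap, as had 6.30% of all.

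Vim rose in both adenovirus groups over vehicle. The probe set 1438118_x_at read 259, 365, 241, 350 and 297 in Jnk1 shRNA livers, 340, 479, 351 and 342 in GFP shRNA livers, and 254, 121, 181, 244 and 180 in vehicle livers. The GFP shRNA arrays lay above all vehicle arrays, and the Jnk1 shRNA arrays overlapped both. It was 1.57-fold vehicle with Jnk1 shRNA (0.65 ± 0.18, adjusted p = 0.00931) and 1.97-fold vehicle with GFP shRNA (0.98 ± 0.19, adjusted p = 0.0104). Jnk1 shRNA was not called different from GFP shRNA (-0.33 ± 0.19, 95% interval -0.73 to 0.08, adjusted p = 0.213).

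The other 2 Vim probe sets went the same way against vehicle. For 1456292_a_at, intensities were 116 to 174 (median 145) in Jnk1 shRNA livers, 163 to 224 (median 171) in GFP shRNA livers and 62.4 to 122 (median 92.4) in vehicle livers. Its folds over vehicle were 1.60 with Jnk1 shRNA (0.68 ± 0.17, adjusted p = 0.00398) and 2.04 with GFP shRNA (1.03 ± 0.18, adjusted p = 0.00377). For 1450641_at the GFP shRNA difference of 0.51 ± 0.17 missed the threshold (adjusted p = 0.146). Its Jnk1 shRNA difference of 0.44 ± 0.16 passed narrowly (adjusted p = 0.0437) and was lost in 14 of 25 alternatives. With the spike-in covariate it was 0.55 (adjusted p = 0.169). Leaving out 1 of vehicle arrays 2, 3 and 5, of GFP shRNA arrays 1 and 3, or of Jnk1 shRNA arrays 2 to 5 also ended it, with adjusted p between 0.0514 and 0.109. Vehicle array 2 was the lowest of all 14 arrays in all 3 probe sets. An x in a probe set's name marks probes that may also match other transcripts.

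Des, the muscle-type filament of stellate cells and smooth muscle, was dim. Its kept probe set read 30.4 to 37.7 in Jnk1 shRNA livers, 37.6 to 65.1 in GFP shRNA livers and 9.22 to 47.9 in vehicle livers. Vehicle livers spread most and covered the Jnk1 shRNA range, and no comparison was called. The vehicle mean lay under the lowest kept mean, so folds against it are uncertain in size. The differences were -0.44 ± 0.38 for Jnk1 against GFP shRNA (adjusted p = 0.407), 0.28 ± 0.36 for Jnk1 shRNA against vehicle (adjusted p = 0.573) and 0.72 ± 0.38 for GFP shRNA against vehicle (adjusted p = 0.389). The dimmer Des probe set, under the filter, read 3.65 to 6.85 in Jnk1 shRNA livers, 5.56 to 7.27 in GFP shRNA livers and 6.81 to 22.5 in vehicle livers. In the fit with no filter it fell against vehicle (-1.17 ± 0.32, adjusted p = 0.0145), but all its values lay below the lowest kept mean of 28.4, so its fold is uncertain, and the 2 probe sets of Des gave different calls.

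Sparc, a collagen-binding matrix glycoprotein, was not called by either probe set. The brighter, 1416589_at, read 172 to 221 in Jnk1 shRNA livers, 190 to 266 in GFP shRNA livers and 140 to 205 in vehicle livers, and the groups overlapped. The differences were -0.18 ± 0.12 for Jnk1 against GFP shRNA (adjusted p = 0.286), 0.23 ± 0.12 for Jnk1 shRNA against vehicle (adjusted p = 0.141) and 0.41 ± 0.12 for GFP shRNA against vehicle (adjusted p = 0.107). The probe set 1448392_at gave -0.22, 0.04 and 0.26. Timp1, which encodes an inhibitor of matrix metalloproteinases and is made by stellate cells, lay under the filter at 16.1 to 29.8 in Jnk1 shRNA livers, 16.3 to 27.9 in GFP shRNA livers and 8.001 to 26.1 in vehicle livers. With no filter its differences were 0.23, 0.59 and 0.36 in the same order (adjusted p = 0.722, 0.241 and 0.746).

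GFP shRNA array 2 stood apart. Its deposited median was 58.3, where all arrays ranged over 41.8 to 58.3, and it was the highest of its group in 8 of the 11 member probe sets. Without it Reln (-0.96), Dcn (-0.44) and Col1a2 (-0.38) kept their calls against GFP shRNA. Col3a1 in GFP shRNA against vehicle livers was then 0.53 (adjusted p = 0.0442), and the 2 Vim probe sets with calls were 0.86 and 0.94 (adjusted p = 0.0424 and 0.0156).

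Deviations of the kept genes from their group means showed how members varied together over the 14 arrays, as a description. Dcn and Reln had the highest correlation of the 28 pairs (r = 0.69, and 0.70 without GFP shRNA array 2). Col3a1 and Lum correlated at 0.65, or 0.42 without that array, and Col3a1 and Col1a2 at 0.38, or -0.11 without it. Sparc and Lum ran opposite at -0.54. The genes closest to the mean deviation of Col3a1 and Col1a2 were picked by the highest r among tested genes outside the members. With the members, 8027 genes were tested. So wide a search over 14 arrays can give a high r by selection alone, and no p was computed. The genes picked were Prxl2b (r = 0.91), Pnp (0.88), Hoxb4 (0.88), Uqcc3 (0.87) and Fam126a (0.86), each over 14 arrays. Without GFP shRNA array 2 these were 0.82, 0.65, 0.75, 0.77 and 0.72.

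The other genes of the matrix gave calls in both directions. Among the other collagens, 13 of 18 listed genes were kept, and against GFP shRNA 5 fell and 1 rose with Jnk1 shRNA, with a median of -0.40 against -0.02 over all genes. Of all tested genes 34.1% were called, 17.7% as higher and 16.5% as lower. Col14a1 fell by 0.42 (adjusted p = 0.00214) and Col16a1 by 0.89 (adjusted p = 0.0150), and both calls were lost with the spike-in covariate (-0.35 and -1.12, adjusted p = 0.113 and 0.0823). The call of Col14a1 was also lost under median scaling, and that of Col16a1 without GFP shRNA array 2 (-0.70, adjusted p = 0.0541). Col18a1, the source of endostatin, fell by 0.19 against GFP shRNA and by 0.29 against vehicle (adjusted p = 0.0161 and 4.15e-04), and the first was lost under median scaling (-0.02) and with no intensity trend (adjusted p = 0.0517). Its second probe set fell by 1.22 and 1.42 in the same comparisons (adjusted p = 8.75e-07 and 4.64e-08), so both were called but differed in size. Against vehicle 2 of the 13 fell and none rose (median -0.13), where 19.3% of all tested genes rose and 19.3% fell.

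Of 13 kept collagen processing genes, 5 rose and 1 fell against GFP shRNA, and 5 rose and 2 fell against vehicle. The medians were 0.11 and 0.04 beside -0.02 over all genes in each. Of all tested genes 17.7% rose and 16.5% fell against GFP shRNA, and 19.3% rose and 19.3% fell against vehicle. P4ha2, a collagen prolyl hydroxylase subunit, rose by 0.79 ± 0.15 against GFP shRNA (adjusted p = 5.83e-04). Sec23a, part of the coat that carries procollagen from the endoplasmic reticulum, rose by 0.42 ± 0.08 (adjusted p = 8.54e-04). Pcolce, an enhancer of procollagen cleavage, rose by 1.16 ± 0.24 at its brighter probe set (adjusted p = 0.00170), while its other probe set differed by 0.22 (adjusted p = 0.586). Plod1, a collagen lysyl hydroxylase, fell by 0.80 ± 0.12 (adjusted p = 1.28e-04).

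Among matrix glycoproteins, 16 of 36 genes on the array were kept, with 0 higher and 2 lower against GFP shRNA and 1 higher and 3 lower against vehicle (medians -0.28 and -0.06). Ecm1, a secreted glycoprotein, fell by 0.52 ± 0.11 and 0.61 ± 0.10 (adjusted p = 0.00143 and 1.84e-04), and the first was lost under median scaling. Nid1, a basement membrane linker, rose by 0.69 ± 0.14 against vehicle (adjusted p = 7.66e-04). Of 9 kept proteases and inhibitors, 1 rose and 2 fell against GFP shRNA, and 2 fell against vehicle (medians -0.06 and -0.11). For both lists the shares of all tested genes were 17.7% higher and 16.5% lower against GFP shRNA, and 19.3% each way against vehicle. The 1 that rose, Mmp14, a membrane-bound collagenase, lost its call with the spike-in covariate (0.13, adjusted p = 0.637). It also lost it without Jnk1 shRNA array 3 (0.31, adjusted p = 0.0509). Another kept Mmp14 probe set differed by 0.50 against GFP shRNA and was not called (adjusted p = 0.125). The fall of Adamts1, a proteoglycan-cleaving protease, against GFP shRNA was lost in 8 of 25 alternatives. Plg, the plasma protease precursor plasminogen, which hepatocytes make, fell by 1.27 ± 0.09 and 1.29 ± 0.08.

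The TGF-beta pathway is the main driver of collagen synthesis in stellate cells. Of its 26 kept genes 2 rose and 6 fell against GFP shRNA, and 3 rose and 7 fell against vehicle (medians -0.28 and -0.31). The background over all tested genes was 17.7% higher and 16.5% lower against GFP shRNA, and 19.3% each way against vehicle. Tgfbi, a matrix protein induced by the pathway, fell by 0.65 ± 0.12 against GFP shRNA (adjusted p = 6.62e-04), and 3 of its 4 probe sets were called. Tgfbr1, the type I receptor, fell by 0.51 ± 0.11 (adjusted p = 0.00172), with 1 of 3 probe sets called, and lost its call under median scaling (-0.30, adjusted p = 0.117) and with the spike-in covariate (-0.47, adjusted p = 0.0810). Inhba, a subunit of activin, rose by 2.02 ± 0.51 (adjusted p = 0.00602), and that call was lost with the spike-in covariate (2.03, adjusted p = 0.113). For the PDGF pathway only Pdgfa and Pdgfc were kept, and limma called neither gene at its brightest probe set in any comparison, with 0 at an unadjusted p under 0.05. The dimmer kept Pdgfc probe set fell by 0.89 against GFP shRNA and by 0.90 against vehicle (adjusted p = 0.00388 and 0.00175), so the 2 probe sets of this growth factor gave different calls.

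Among other stellate and myofibroblast genes, 1 of 18 kept rose and 7 fell against GFP shRNA, and 3 rose and 4 fell against vehicle. The medians were -0.28 and -0.27. Over all tested genes 17.7% rose and 16.5% fell against GFP shRNA, and 19.3% rose and 19.3% fell against vehicle. Tpm2, a tropomyosin of contractile cells, fell by 1.21 ± 0.12 against GFP shRNA and by 1.08 ± 0.11 against vehicle (adjusted p = 1.57e-06 and 1.42e-06), with 2 of 3 probe sets called. Tpm1, its paralogue, rose by 0.92 ± 0.21 and 1.01 ± 0.19, with 1 of 2 probe sets called, and the first of these calls was lost with the spike-in covariate (1.01, adjusted p = 0.0504). Of the reelin pathway, 4 of 5 genes on the array were kept. Vldlr, a reelin receptor, rose against vehicle (0.81 ± 0.21, adjusted p = 0.00604), a call lost with the spike-in covariate (0.65, adjusted p = 0.213), and limma called none of the 4 against GFP shRNA (1 had an unadjusted p under 0.05). In GFP shRNA against vehicle livers limma called 1 gene in these lists, Acvr1, an activin and BMP receptor, which fell by 0.67 ± 0.15 (adjusted p = 0.0286) and lost its call in 10 of 25 alternatives. Leaving out 1 of vehicle arrays 2, 3 and 5 or of GFP shRNA arrays 2, 3 and 5 ended it, with adjusted p between 0.0568 and 0.0839. Each list held 0 to 5 genes with an unadjusted p under 0.05 there, and of all genes 2.18% were called higher and 0.623% lower. The lists were chosen with earlier results known, and describe only these arrays.

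**Figure D3:**
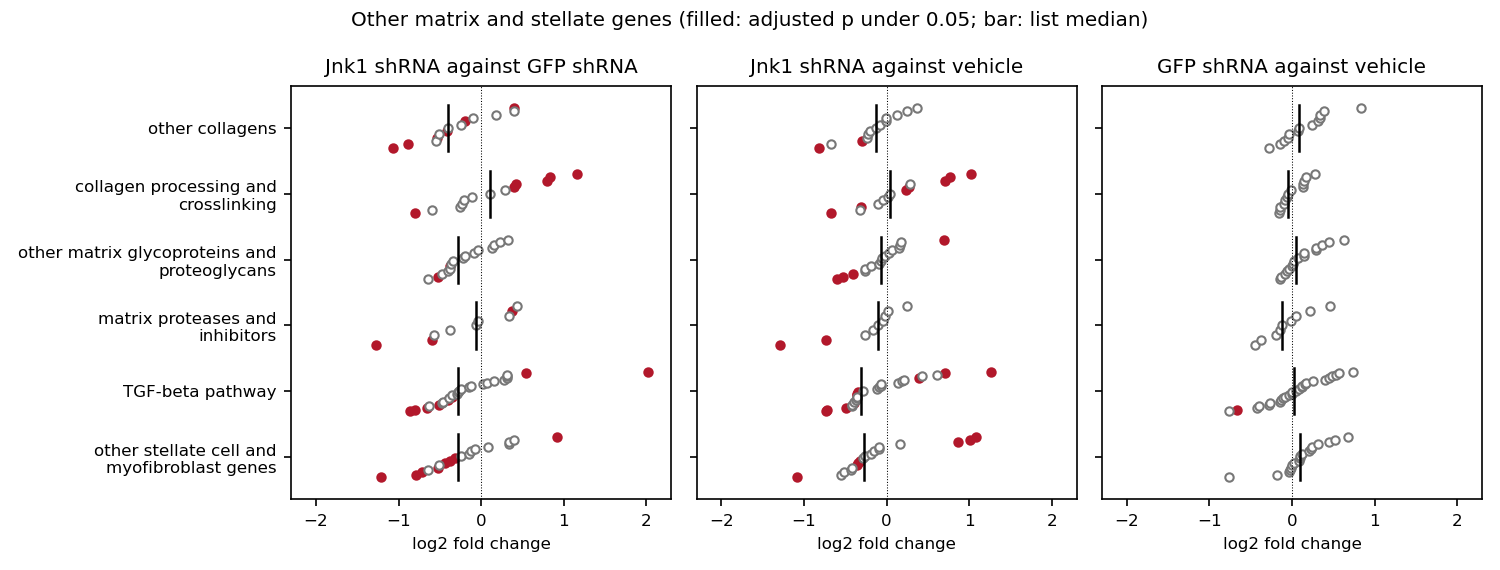
Log2 differences of the kept genes of 6 matrix and stellate cell lists in the 3 comparisons, 1 point per gene, filled where the adjusted p was under 0.05, with a bar at the list median. The other collagens have a median of -0.40 for Jnk1 against GFP shRNA, and collagen processing genes a median of 0.11.

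Marker levels of other cells were set beside the members, as sums over the kept genes of each list. The summed intensity of the 8 kept members was 1869 to 2120 in Jnk1 shRNA livers, 2557 to 3005 in GFP shRNA livers and 2151 to 2412 in vehicle livers. Jnk1 shRNA livers lay below both other groups, and GFP shRNA livers lay above vehicle livers with no overlap. Dcn and Reln, which fell, were the brightest members in vehicle livers, while by gene 5 of the 8 differences from vehicle were positive (median 0.14). Of the defining stellate markers outside the members only Acta2 and Cygb were kept of 8 on the array, and Lrat, Pdgfrb, Pdgfra, Hand2, Gfap and Ngfr lay under the filter. Their sum was 139 to 184, 185 to 287 and 184 to 291 in Jnk1 shRNA, GFP shRNA and vehicle livers. Acta2, the actin of myofibroblasts and smooth muscle, fell against GFP shRNA by 0.52 ± 0.19, narrowly past the threshold (adjusted p = 0.0479).

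Macrophage markers moved as well. Of 17 kept, 10 fell with Jnk1 shRNA against GFP shRNA and none rose, and 1 rose and 6 fell against vehicle. With GFP shRNA against vehicle 4 rose and 2 fell. As background for each list here, 17.7% of all tested genes rose and 16.5% fell with Jnk1 shRNA against GFP shRNA. Against vehicle 19.3% rose and 19.3% fell with Jnk1 shRNA, and 2.18% rose and 0.623% fell with GFP shRNA. Clec4f, a marker of resident Kupffer cells, fell by 2.40 ± 0.13 with Jnk1 shRNA against vehicle, and it fell by 1.98 ± 0.14 with GFP shRNA against vehicle. The median of the macrophage list was -0.11 in the first comparison and 0.46 in the second, so with GFP shRNA Clec4f ran against its list. The macrophage sum was 4411 to 5422 in Jnk1 shRNA livers, 7174 to 8560 in GFP shRNA livers and 4324 to 7533 in vehicle livers. Endothelial markers fell in 9 of 19 and in 10 of 19 cases against GFP shRNA and vehicle, with sums of 1628 to 2096, 2266 to 2763 and 2500 to 2621 in Jnk1 shRNA, GFP shRNA and vehicle livers. T and NK cell markers, of which 4 of 10 were kept, summed to 170 to 228, 156 to 246 and 80.9 to 125 in the same order, and 3 of the 4 rose with Jnk1 shRNA against vehicle. With GFP shRNA against vehicle 1 of the 4 rose, and none was called for Jnk1 against GFP shRNA. The list medians were 1.39 for Jnk1 shRNA against vehicle, 1.15 for GFP shRNA against vehicle and 0.15 for Jnk1 against GFP shRNA. Among smooth muscle markers 1 of 4 fell against GFP shRNA and 1 against vehicle, and the 3 kept neutrophil markers were not called. The cholangiocyte list kept only Cd24a, which rose in both Jnk1 shRNA comparisons, and the mesothelium list kept none of 4. Vim and Sparc are also made by endothelium, and the part of other cells in the Vim, Reln and collagen results was not tested. Hepatocyte markers summed to 57373 to 60659 in Jnk1 shRNA livers, 59976 to 61263 in GFP shRNA livers and 59348 to 63359 in vehicle livers, and 3 of 13 fell with Jnk1 shRNA against GFP shRNA and 5 against vehicle.

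**Figure D4:**
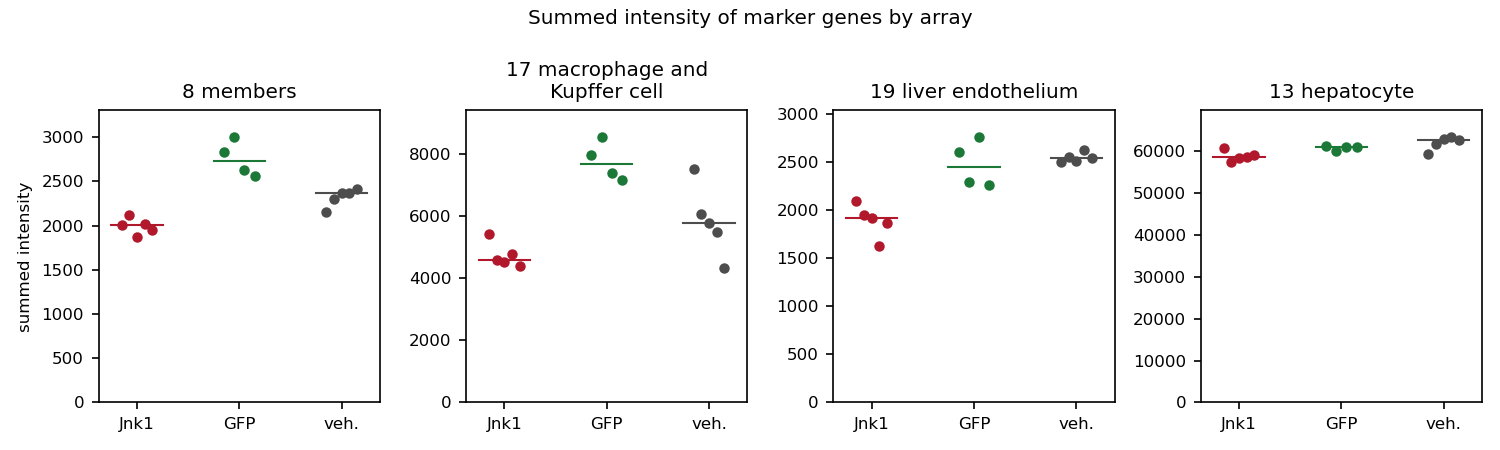
Summed intensity of the kept markers of each cell type on each array (members, macrophages, endothelium and hepatocytes), with a line at the group median. Member sums are lowest in Jnk1 shRNA livers at 1869 to 2120, and macrophage sums are highest in GFP shRNA livers at 7174 to 8560.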

How the data were processed

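The deposited values were linear probe set intensity values for 14 arrays, 1 array per sample, which the authors had scaled to a trimmed mean of 150.05 to 150.06. The labels name neither the software nor a background correction, and no detection calls were used. Gene symbols came from the platform annotation. Arrays were quantile normalized, since their medians spanned 0.48 on the log2 scale. A floor was set at the 5th percentile (2.01) before log2 transformation. The 64 control probe sets and the 40% of the others with the lowest mean were left out, which left 13575. The 3 group means were fitted with limma 3.58.1 in R 4.3.3 using a variance trend on intensity, with Benjamini-Hochberg adjustment. Where a gene had several kept probe sets, the brightest stood for it in counts by gene. Arrays carry no depth, and their number limits the precision. On simulated data with 200 changed probe sets, 48% of log2 changes of 0.5 and 80% of log2 changes of 1 were recovered for Jnk1 against GFP shRNA. The data gave 4497 calls in that comparison, far more than were changed in the simulation, so these rates do not carry over directly. The named genes were all 10 members, up to 4 genes of each list and comparison with the smallest p, and Mapk8. Beside these, the genes with the highest correlation to Col3a1 and Col1a2 were named, picked from these same data. The members and lists were chosen with earlier results of these data known. Alternatives covered the scaling, filter, floor, variance model, array weights, groups in the fit, a replicate block, a spike-in covariate and leaving out each array.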

Additional observations from a re-analysis of the deposited data

Results flagged for a closer look

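In 4 of 51 tested combinations of a member probe set and a group, 1 array lay far from the others by Dixon's test, where chance gives about 5%. The test used log2 values, so the gaps below are shares of the log2 range, while the readings are printed as linear intensities. For Vim 1438118_x_at, GFP shRNA array 2 read 479 against 351 for the nearest and 340 for the farthest array, and the gap was 0.909 of the range. For Col1a2 1450857_a_at the same array read 180 against 136 and 131, a gap of 0.881 of the range. Both exceed the critical value of 0.829 for 4 arrays. Col3a1 1427884_at was low on vehicle array 5, at 7.77 against 13.9 and 16.2 (0.795 of the range). Timp1 1460227_at was low on Jnk1 shRNA array 5, at 16.1 against 25.2 and 29.8 (0.729 of the range). The last 2 exceed 0.710 and concern probe sets under the filter. The cause was not tested.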

How the results depend on the processing

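Calls of Reln and Col1a2 against GFP shRNA, and of Reln and Dcn against vehicle, held with Jnk1 shRNA in all 25 alternatives. So did those of Vim 1438118_x_at and 1456292_a_at against vehicle, both with Jnk1 shRNA and with GFP shRNA. No call of a kept member reversed. With each array left out in turn, 3 to 4 member probe sets were called for Jnk1 against GFP shRNA, 4 to 6 for Jnk1 shRNA against vehicle and 3 for GFP shRNA against vehicle. The counts over all probe sets were then 3841 to 4591, 4575 to 5502 and 198 to 383, beside 4497, 5099 and 350 with all arrays. The lowest, 198, was without GFP shRNA array 5. A model that adds the spike-in level of each array gave 2172 calls for Jnk1 against GFP shRNA and 2858 for Jnk1 shRNA against vehicle. That level separates Jnk1 shRNA from the other groups, so calls lost with this covariate cannot be told apart from lost precision. A fit of only the GFP shRNA and vehicle arrays gave 209 calls. Col3a1 in GFP shRNA against vehicle livers lost its call in that fit (adjusted p = 0.0577). Under median scaling 72.3% of the calls of Jnk1 against GFP shRNA were higher, where the quantile normalized values gave 2350 higher and 2147 lower. With the replicate number as a block 4101 probe sets were called for Jnk1 against GFP shRNA, 4825 for Jnk1 shRNA against vehicle and 247 for GFP shRNA against vehicle. In deviations from group means, 2 of 13 pairs of same-numbered arrays had a correlation over 0.1 (range -0.24 to 0.12). Arrays with different numbers were not compared, so whether the numbers pair the samples was not tested. The cause of these shifts was not tested. Without detection calls, levels under the lowest kept mean of 28.4 have uncertain folds.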
